A study of Mus musculus with 18 samples.

Results

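The 6 genes *Erg*, *Fli1*, *Ets1*, *Ets2*, *Etv6* and *Elf1*, which encode transcription factors of the ETS family, were examined in whole-genome bisulfite sequencing (WGBS) of mouse spleen cells. Regions were taken where they overlapped each gene body or the 5 kb to either side of it (its window), which gave 429 of the 411770 regions listed for CD11b+ cells and 522 of the 553467 listed for CD4+ cells. CD11b marks myeloid cells and CD4 marks helper T cells, and both populations were enriched on magnetic columns. Each cell type came from 4 mice labelled Dnmt3a+/+ (WT) and 4 labelled Dnmt3aR878/+, called *Dnmt3a* R878H/+ here. Mutant mice carried 1 allele of the R878H substitution in DNMT3A, switched on in blood cells by Vav1-iCre. By the study's methods WT pooled mice with Cre and a normal *Dnmt3a* and mice with the floxed allele and no Cre. All were on a C57BL/6 background, and the labels give neither age nor sex. R878H/+ CD11b+ replicates 3 and 4 have more than 1 entry each and were counted as 1 mouse each.

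DNMT3A adds methyl groups to CpG sites that were not methylated before, and R878H lies in its catalytic domain. ETS factors bind DNA through a shared domain that reads a GGAA core, and in blood they act from the stem cell to the mature lymphocyte and myeloid cell. In DNA, methylation is usually low at active promoters and enhancers and high across the rest of a gene body.

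For each region the tables hold 1 mean methylation level (percent of CpG cytosines read as methylated) for WT and 1 for R878H/+, each over 4 mice, and no value of a single mouse. No error between mice, no interval and no test could therefore be given, and depth is unknown. Loss is WT minus R878H/+ in percentage points. No group name stands in the files, and the mean taken as WT was chosen from the study's density plots, in which WT cells were more methylated, so every direction below rests on that reading. A region was called a differentially methylated region (DMR) when it held more than 10 CpG cytosines, differed by more than 20 points and had a q-value of the region caller below 0.05. Cytosines of both strands were listed separately, so the DMRs here held fewer CpG dinucleotides than listed cytosines, from 8 to 51 in CD11b+ and from 6 to 35 in CD4+ cells.

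As a check of the labels, WT methylation over the windows of myeloid markers was lower in CD11b+ cells for 9 of 10 genes, with medians of 69.3% and 80.3% in CD11b+ and CD4+ cells. The exception was *Itgam*, which encodes CD11b itself, at 85.4% in CD11b+ and 82.0% in CD4+ cells. For T cell markers it was lower in CD4+ cells for 8 of 10 genes, with medians of 79.0% in CD11b+ and 70.2% in CD4+ cells; *Cd4* and *Cd6* went the other way. Of 7 B cell markers, 5 were lower in CD11b+ cells. *Pax5*, at 74.8% in CD11b+ and 71.1% in CD4+ cells, and *Blk*, at 82.1% and 79.2%, went the other way. The widest difference was at *Cd79a*, part of the B cell receptor, with 20.9% in CD11b+ and 79.4% in CD4+ cells over 2 listed regions in each. CD11b+ values ranged from 20.9% to 82.1% over the 7 B cell markers and CD4+ values from 67.7% to 86.6%. The part of other cell types in the results was not tested.

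All 6 genes held a hypomethylated DMR in CD11b+ cells and 5 of 6 did in CD4+ cells, the exception being *Ets2*. In CD11b+ cells 16 of 429 member regions (3.73%) were hypomethylated DMRs, beside 0.576% of all listed regions. In CD4+ cells 25 of 522 (4.79%) were, beside 0.665% of all listed regions. No member was a hypermethylated DMR in either cell type; such DMRs made up 0.0126% of all listed regions in CD11b+ and 0.000542% in CD4+ cells.

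At the level of genes, 8.07% of protein-coding genes with a listed region in such a window held at least 1 hypomethylated DMR in the CD11b+ table and 10.9% in the CD4+ table. Long genes hold more regions, and of protein-coding genes with 20 or more listed regions 22.8% had one in CD11b+ and 25.9% in CD4+ cells. *Etv6*, *Erg*, *Fli1*, *Ets1* and *Elf1* had from 36 to 176 listed regions in CD11b+ and from 50 to 192 in CD4+ cells, and *Ets2* had 5 and 14. The class of 20 or more was thus not matched to these genes in number of regions.

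Methylation was lower in R878H/+ in 410 of 429 member regions (95.6%) of CD11b+ cells and in 503 of 522 (96.4%) of CD4+ cells, beside 93.4% and 95.5% of all listed regions. The sign alone thus did not set the 6 genes apart. The size of the loss was larger than over all regions. The 6 genes were chosen with earlier results of these data known, so this and the share of DMRs describe them and test nothing. The median member loss was 10.7 points in CD11b+ cells (quartiles 5.98 and 18.6), against 6.55 over all regions. In CD4+ cells it was 9.46 points (quartiles 5.21 and 17.5), against 6.85 over all regions. Without regard to q or cytosine number, 97 member regions (22.6%) lost more than 20 points in CD11b+ cells beside 7.00% of all regions, and 105 (20.1%) did in CD4+ cells beside 6.23%. Of the 97, 41 held exactly 10 cytosines and 40 had enough cytosines without passing the q threshold, and the same counts for the 105 were 42 and 38.

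Loss depended on the WT level throughout the tables, being small where WT was near 0% or 100%. The members were therefore also set beside all listed regions of the same 10-point step of WT methylation. Of the 429 member regions in CD11b+ cells, 316 (73.7%) lost more than the median of their step, by a median of 2.83 points. In CD4+ cells 352 of 522 (67.4%) did, by a median of 2.36 points. By construction about 50% of all regions lie above their own median. *Etv6* stood highest, with 82.4% of its regions above in CD11b+ and 79.2% in CD4+ cells. *Ets1* lay below, with 44.4% and 40.0%, and so did *Ets2* in CD4+ cells with 5 of 14.

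**Figure D1:**
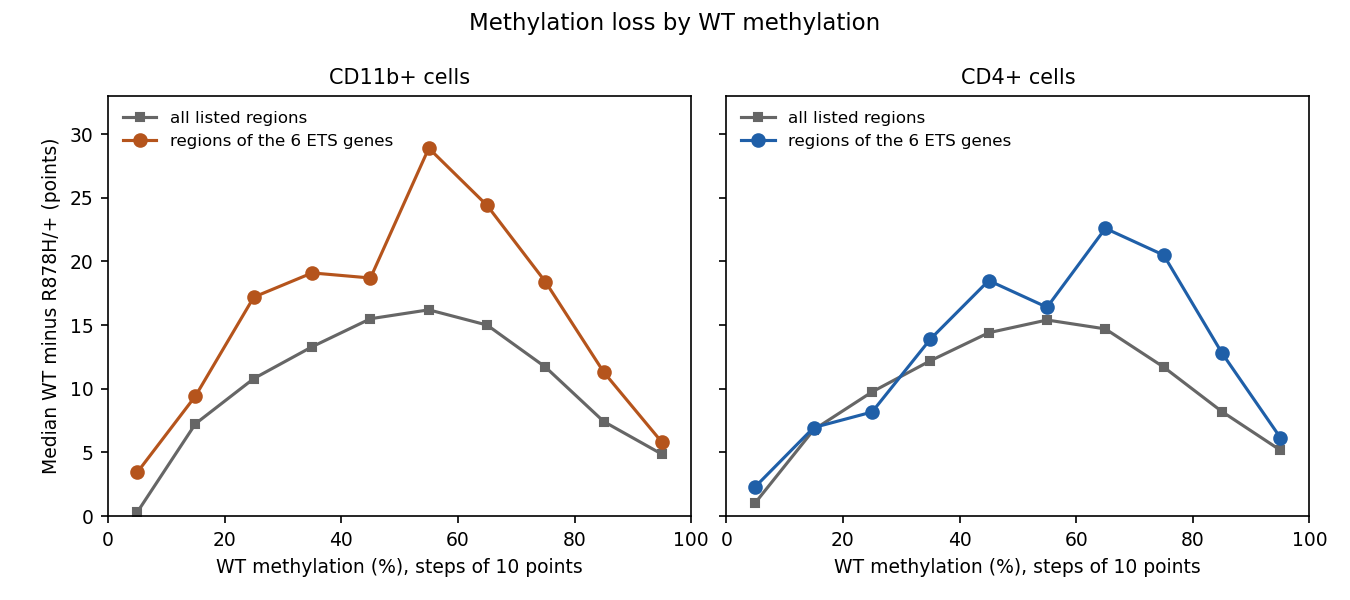
Median loss (WT minus R878H/+, percentage points) against WT methylation in steps of 10 points, for all listed regions (grey squares) and the member regions of the 6 ETS genes (coloured circles), in CD11b+ (left) and CD4+ cells (right). The member median is the higher in 10 of 10 steps in CD11b+ and 9 of 10 in CD4+ cells; at 60 to 70% it is 24.4 points against 15.0 and 22.6 against 14.7, and in CD4+ cells 16.4 against 15.4 at 50 to 60% and 8.17 against 9.75 at 20 to 30%.

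**Figure D2:**
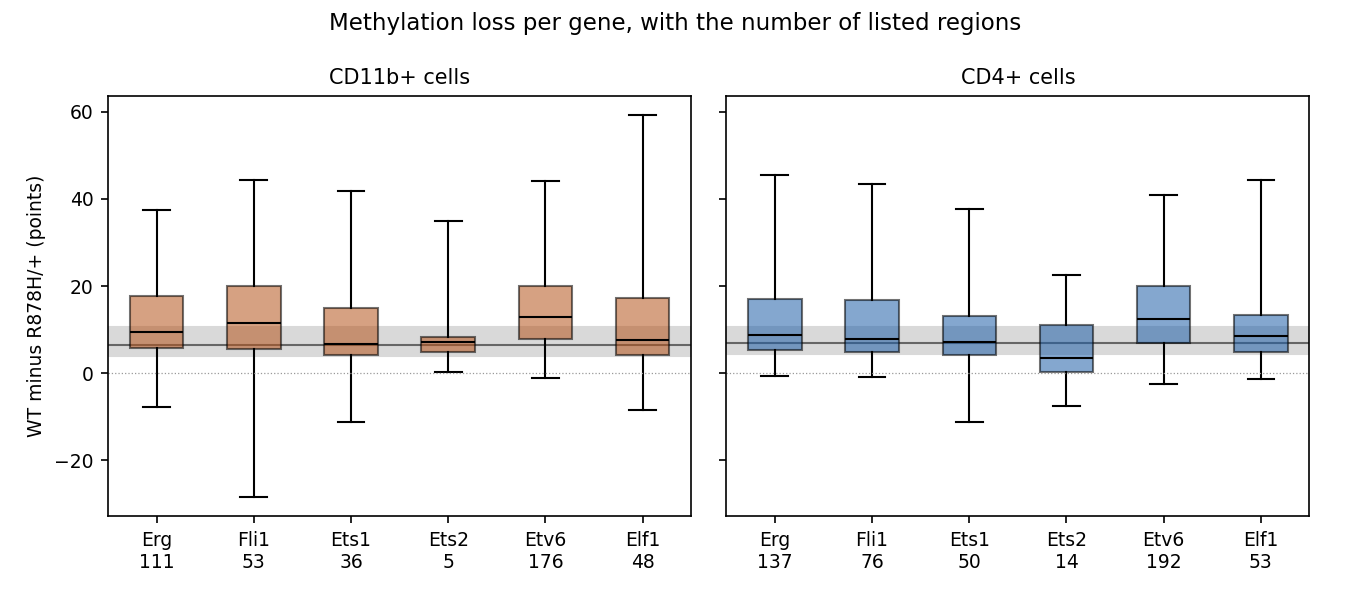
Loss (percentage points) per gene, with the number of listed regions under each name. Boxes span the quartiles with the median as a line and whiskers reach the extremes; the grey band and line are the quartiles and median of all listed regions. *Etv6* has the highest median in both cell types, 12.9 and 12.5 points, and the whisker of *Fli1* in CD11b+ cells goes down to -28.4.

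*Erg*, which maintains blood stem cells and drives megakaryocyte genes, lies on the minus strand of chromosome 16 (mm10, chr16:95359169-95586593, 227 kb). Of its listed regions 105 were lower and 6 higher in R878H/+ CD11b+ cells, with a median loss of 9.40 points, and 136 of 137 were lower in CD4+ cells, with a median of 8.85. Its DMRs numbered 5 in CD11b+ and 9 in CD4+ cells, all in introns. They sat together in the second part of the gene, from 108 to 165 kb after the annotated gene start, on either side of a cluster of internal coding starts near 127 kb (chr16:95459348 and neighbours), from which shorter coding transcripts begin.

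In CD11b+ cells the *Erg* DMR with the largest loss (chr16:95478590-95479112) went from 88.9% in WT to 54.3% in R878H/+. The next (chr16:95461714-95462862), whose nearer edge was 2.37 kb upstream of the internal starts, went from 75.3% to 43.6%, and that at chr16:95443131-95444206 from 66.7% to 36.3%. The remaining 2, at 134 and 146 kb, lost 22.4 and 27.8 points and ended at 8.85% and 11.0%. WT CD11b+ cells held these 2 sites at 31.2% and 38.8%, the lowest WT levels among the *Erg* DMRs.

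The largest *Erg* loss of CD4+ cells was at chr16:95463883-95464112, from 68.3% to 22.8%, which is 45.5 points over 11 cytosines. A DMR at chr16:95445636-95445808 went from 81.0% to 42.1% and one at chr16:95448114-95449212 from 74.3% to 38.2%. The other 6, from 130 to 165 kb, lost between 24.2 and 35.4 points. The CD11b+ region over the site of that largest loss went from 53.5% to 16.0% over 12 cytosines and missed the q threshold.

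WT cells of both types were already low around the internal *Erg* starts. Between 125 and 150 kb the median of 22 regions was 26.8% in WT and 6.71% in R878H/+ CD11b+ cells, and that of 23 regions in CD4+ cells was 44.3% and 19.7%. Within the 25 kb after the gene start, by contrast, WT medians were 91.5% and 90.3% with median losses of 5.83 and 6.21 points. Right at the internal starts, 3 regions in CD11b+ cells were at 2.67%, 6.75% and 18.0% in WT and 2.06%, 0.477% and 1.80% in R878H/+. The *Erg* sequence shown here (chr16:95451182-95451481, plus strand of GRCm38) is the part with most CpGs of the CD4+ DMR at chr16:95451018-95451933. That DMR had the largest mean loss among those of *Erg* called in both cell types. Over the whole of it CD4+ cells went from 72.5% to 37.0%. The 1 CD11b+ region over it, the DMR at chr16:95451359-95453382, covers 62.8% of it and went from 31.2% to 8.85%. The first of the shown bases lie before that CD11b+ DMR. CpG sites are in capitals in this and the following sequences.
Erg: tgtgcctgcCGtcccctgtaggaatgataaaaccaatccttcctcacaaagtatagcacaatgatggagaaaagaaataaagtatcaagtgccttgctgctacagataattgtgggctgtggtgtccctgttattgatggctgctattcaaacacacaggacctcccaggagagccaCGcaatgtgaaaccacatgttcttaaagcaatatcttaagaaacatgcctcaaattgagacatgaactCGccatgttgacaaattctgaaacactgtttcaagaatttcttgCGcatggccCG

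**Figure D3:**
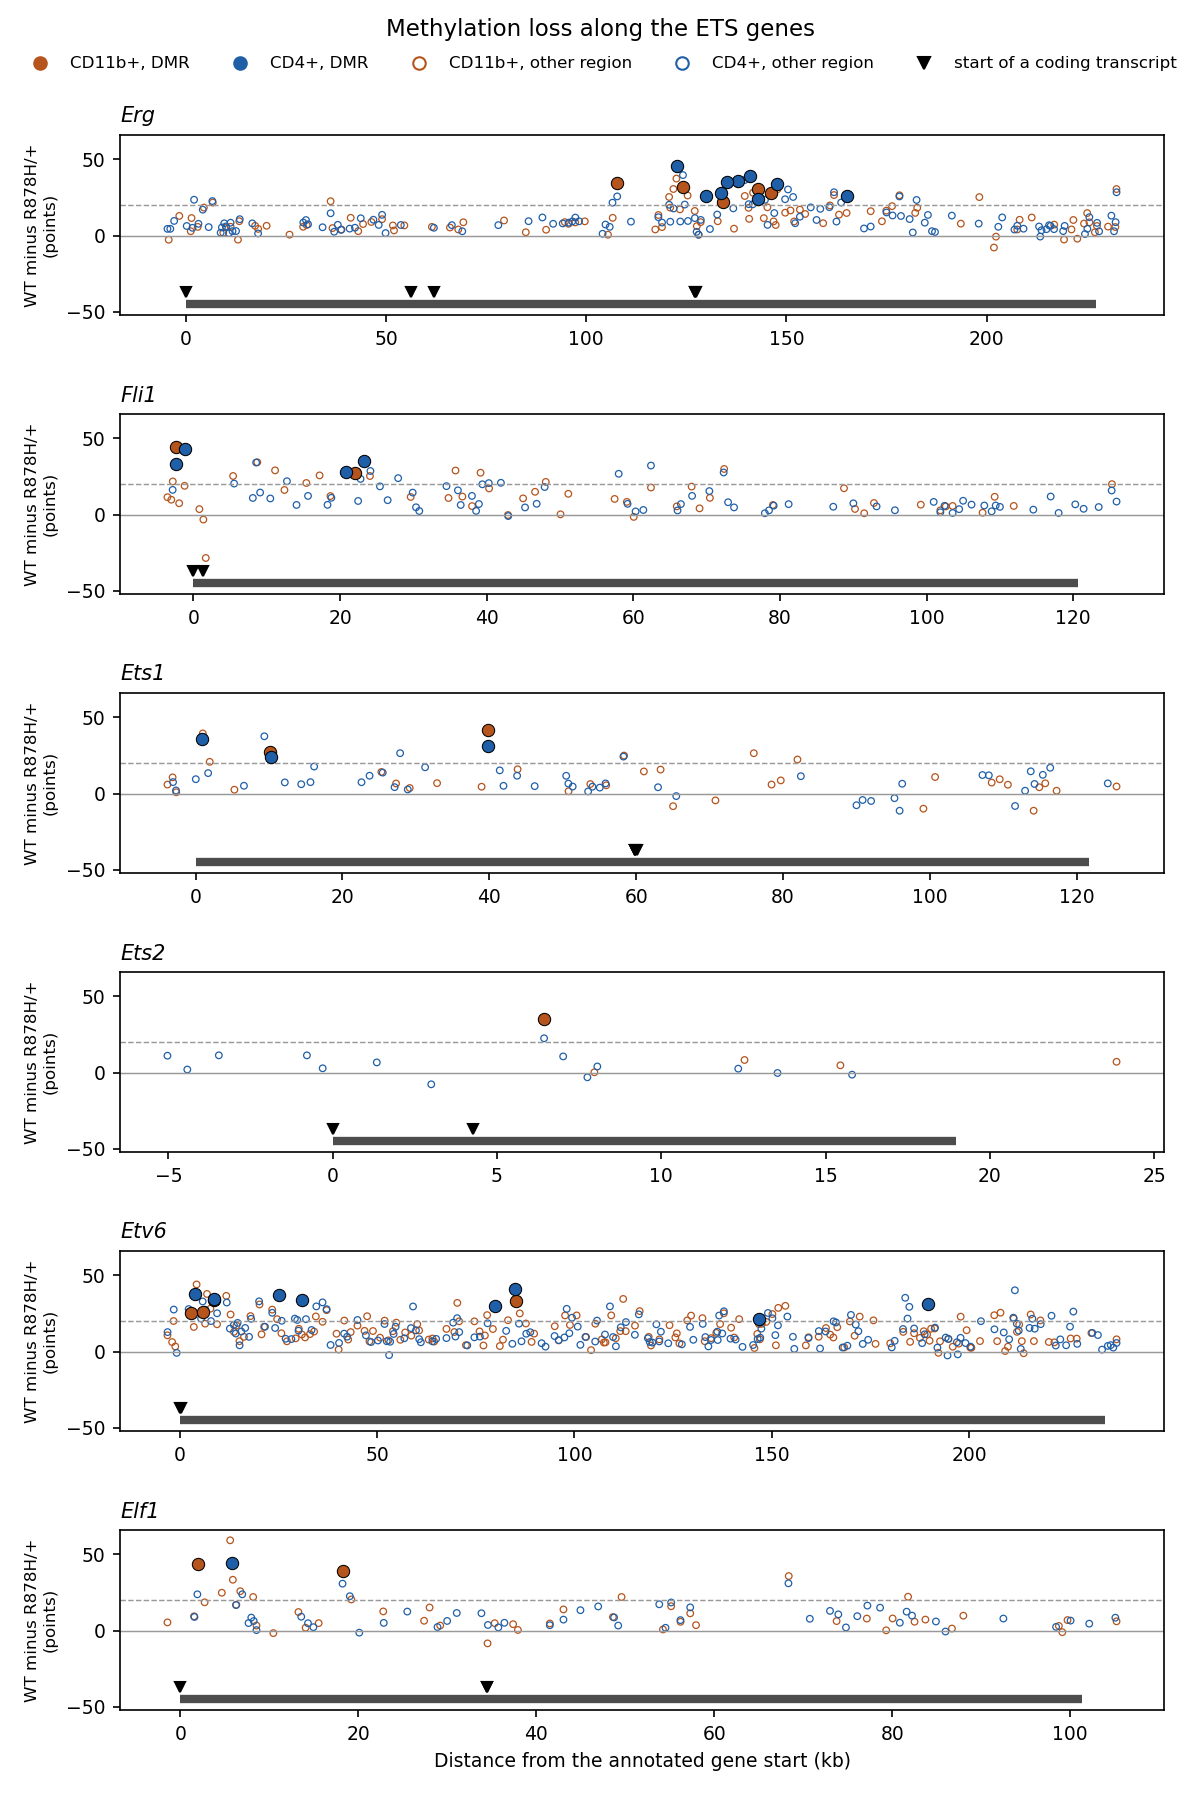
Loss (WT minus R878H/+, percentage points) of every listed region against the distance of its midpoint from the annotated gene start (kb), for CD11b+ (orange) and CD4+ cells (blue). Filled points are DMRs, the dashed line is 20 points, the grey bar is the gene body and triangles mark starts of coding transcripts; *Erg* DMRs gather from 108 to 165 kb, and the point at -28.4 in *Fli1* is the promoter region that was higher in R878H/+ CD11b+ cells.

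*Fli1*, the closest relative of *Erg* and a factor of megakaryocytes, stem cells and lymphocytes, lies on the minus strand of chromosome 9 (chr9:32422204-32542861, 121 kb). It had 53 listed regions in CD11b+ cells with a median loss of 11.4 points and 76 in CD4+ cells with 7.80. The DMRs fell in 2 places, just upstream of the gene and in an intron about 22 kb after its start.

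Upstream, the CD11b+ DMR at chr9:32544977-32545588 went from 78.8% to 34.4%, a loss of 44.4 points over 34 cytosines and the largest of any CD11b+ DMR in the 6 genes. The CD4+ DMR over the same place (chr9:32544825-32545610) went from 77.3% to 44.1%. Its near edge was 1.96 kb from the first *Fli1* start. CD4+ cells had a further DMR nearer the gene, at chr9:32543663-32544269 and 0.802 kb upstream, which went from 62.1% to 18.7%. The CD11b+ region there was lower in WT, at 29.2%, and 10.2% in R878H/+, and was no DMR.

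In the intron of *Fli1*, 1 CD11b+ DMR of 65 cytosines (chr9:32519291-32522283) went from 61.1% to 33.8%. The CD4+ table split that stretch, with DMRs at chr9:32519290-32519928 from 88.0% to 52.6% and chr9:32521721-32522283 from 78.0% to 49.7%. WT levels in the stretch were thus higher in CD4+ than in CD11b+ cells.

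Just inside *Fli1*, 2 adjacent regions were higher in R878H/+ CD11b+ cells. The region chr9:32541083-32541294, 0.301 kb after the coding start at chr9:32541595, held 20 CpG dinucleotides, of which the table counts 11 cytosines. It was at 2.57% in WT and 31.0% in R878H/+ CD11b+ cells, 28.4 points higher. It missed the q threshold and was no hypermethylated DMR. The adjacent region chr9:32541297-32541733, over that coding start, was at 0.205% in WT and 3.41% in R878H/+. The next one (chr9:32541832-32542288) was lower, at 3.96% and 0.312%, and CD4+ cells had no listed region there. The upstream DMR shared by both cell types is shown (chr9:32545289-32545588, plus strand).
Fli1: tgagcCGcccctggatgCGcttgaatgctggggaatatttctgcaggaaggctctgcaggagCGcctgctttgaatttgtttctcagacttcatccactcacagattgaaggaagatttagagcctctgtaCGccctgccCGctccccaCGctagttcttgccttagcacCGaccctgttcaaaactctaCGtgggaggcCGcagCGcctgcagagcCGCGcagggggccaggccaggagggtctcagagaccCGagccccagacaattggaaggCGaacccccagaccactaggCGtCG

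*Ets1*, needed for the development of T and NK cells and abundant in resting lymphocytes, lies about 93.4 kb from *Fli1* on the plus strand of chromosome 9 (chr9:32636221-32757820, 122 kb). It had 36 listed regions in CD11b+ cells with a median loss of 6.74 points and 50 in CD4+ cells with 7.06, close to the medians of all listed regions. Its DMRs, 2 in CD11b+ and 3 in CD4+ cells, lay between the annotated gene start, where non-coding transcripts begin, and the coding starts 59.8 kb further on.

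The *Ets1* DMR 39.8 kb after the gene start had the larger loss of the 2 in CD11b+ cells. It went from 68.6% to 26.8% there (chr9:32675544-32676471) and from 76.7% to 45.3% in CD4+ cells (chr9:32675543-32676471). At 10.2 kb, CD11b+ cells went from 66.3% to 39.1% (chr9:32645473-32647356) and CD4+ cells from 81.0% to 56.9% (chr9:32645859-32647070). Both places were therefore DMRs in both cell types.

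The third *Ets1* DMR of CD4+ cells, at chr9:32636739-32637423 and 500 bp after the nearest annotated start (chr9:32636239, non-coding), went from 78.8% to 43.0%, the largest loss of the 3. CD11b+ cells lost as much there, from 61.8% to 22.3% over 12 cytosines, but the region missed the q threshold. The DMR at 39.8 kb is shown from its first base (chr9:32675543-32675842, plus strand).
Ets1: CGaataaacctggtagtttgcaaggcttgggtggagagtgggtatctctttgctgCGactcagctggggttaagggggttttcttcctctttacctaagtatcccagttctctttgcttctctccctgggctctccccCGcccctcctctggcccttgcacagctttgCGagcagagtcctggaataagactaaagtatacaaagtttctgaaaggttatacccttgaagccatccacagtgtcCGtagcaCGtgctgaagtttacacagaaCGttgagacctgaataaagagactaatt

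The second part of *Ets1* differed in WT level and in sign, a division that was chosen after its values were seen. After the first coding start (chr9:32696022) CD4+ cells were at a WT median of 41.0% over 18 regions and CD11b+ cells at 73.9% over 18. Neither held a DMR. With 0.576% of all listed regions called in CD11b+ and 0.665% in CD4+ cells, 18 regions would mostly hold none. Median losses before and after that start were 6.79 and 6.39 points in CD11b+ and 7.56 and 5.28 in CD4+ cells. In 7 of the 18 CD4+ regions after it methylation was higher in R878H/+ than in WT, and in 4 of 18 in CD11b+ cells. Before that start, 0 of 32 and 0 of 18 regions were. The largest increases in *Ets1* were from 28.9% to 40.1% at chr9:32731916-32732270 in CD4+ cells and from 73.8% to 85.0% at chr9:32750192-32750493 in CD11b+ cells.

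*Ets2*, whose product responds to Ras and MAP kinase signals, lies upstream of *Erg* on the plus strand (chr16:95702075-95721051, 19.0 kb). Few regions were listed in it, 5 in CD11b+ and 14 in CD4+ cells. The CD11b+ DMR at chr16:95708106-95708923, an intron 6.44 kb after the gene start, went from 69.5% to 34.6%. In CD4+ cells 2 listed regions covered 56.0% of it, and their mean weighted by overlap went from 73.8% to 54.8%, a loss of 18.9 points. Of these, the region inside it (chr16:95708350-95708668) went from 67.7% to 45.2% over exactly 10 cytosines. That region missed the q threshold as well, and neither was a DMR. The other CD11b+ regions of *Ets2* lost between 0.265 and 8.32 points. In CD4+ cells 4 of 14 were higher in R878H/+, by at most 7.62 points. Part of the CD11b+ DMR is shown (chr16:95708624-95708923, plus strand).
Ets2: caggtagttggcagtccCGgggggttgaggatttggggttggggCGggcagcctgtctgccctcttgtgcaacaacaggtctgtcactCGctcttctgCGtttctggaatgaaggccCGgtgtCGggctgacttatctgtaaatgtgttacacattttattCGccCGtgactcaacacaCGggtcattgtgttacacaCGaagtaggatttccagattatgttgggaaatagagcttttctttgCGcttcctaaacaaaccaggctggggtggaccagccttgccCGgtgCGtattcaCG

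*Etv6*, a repressor that adult blood stem cells need to survive in the marrow, is the longest of the genes (chr6:134035700-134270158, plus strand, 234 kb). It had the most listed regions, 176 in CD11b+ and 192 in CD4+ cells, and the highest median losses, 12.9 and 12.5 points. Methylation was lower in R878H/+ in 174 of the 176 and in 188 of the 192. Losses over 20 points numbered 44 and 48 and were spread along the gene, whereas DMRs numbered 4 and 8.

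In CD11b+ cells 3 of the 4 *Etv6* DMRs lay within 9 kb of the start. They went from 34.5% to 9.40% at chr6:134038245-134038904, from 38.9% to 13.2% at chr6:134041176-134041931 and from 53.8% to 19.7% at chr6:134044035-134044712. The fourth, 85.2 kb after the start (chr6:134120692-134121188), went from 56.1% to 23.0%. All 4 started from intermediate WT levels, below the *Etv6* median of 82.5%.

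In CD4+ cells the largest *Etv6* losses were from 75.2% to 34.2% at chr6:134120402-134121105, from 68.7% to 30.7% at chr6:134038717-134040213 and from 76.0% to 38.7% at chr6:134060182-134061387. The other 5 lost between 21.1 and 34.4 points. Among these, chosen after their values were seen, the DMR at chr6:134224799-134225923 went from 81.7% to 50.2% in CD4+ cells, a loss of 31.5 points. Over it lay 3 CD11b+ regions, whose mean weighted by overlap went from 81.7% to 72.0%, a loss of 9.72 points. Singly they were at 90.0%, 70.6% and 86.65% in WT and lost 11.3, 7.18 and 15.05 points. Another DMR, at chr6:134066131-134067505, overlapped an exon and went from 70.4% to 36.8%. The mean of the 3 CD11b+ regions over that DMR went from 74.2% to 63.7%.

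The 25 kb after the *Etv6* start had a median of 61.8% in WT and 26.5% in R878H/+ CD11b+ cells over 21 regions, and 68.0% and 36.8% in CD4+ cells over 22. Of these, 12 lost over 20 points in each cell type. The DMR at about 85 kb, called in both cell types, is shown (chr6:134120787-134121086, plus strand).
Etv6: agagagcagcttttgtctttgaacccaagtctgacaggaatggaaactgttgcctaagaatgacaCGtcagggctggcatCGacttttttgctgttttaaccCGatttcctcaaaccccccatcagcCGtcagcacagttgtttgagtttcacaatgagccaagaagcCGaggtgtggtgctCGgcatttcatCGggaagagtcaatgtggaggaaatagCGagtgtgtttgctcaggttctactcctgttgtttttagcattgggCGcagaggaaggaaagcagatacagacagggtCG

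*Elf1*, expressed in lymphocytes and active on T cell and stem cell enhancers, lies on chromosome 14 (chr14:79481194-79582494, plus strand, 101 kb). It had 48 listed regions in CD11b+ cells with a median loss of 7.60 points and 53 in CD4+ cells with 8.50. The CD11b+ DMRs went from 60.5% to 16.9% at chr14:79483013-79483234, 1.93 kb after the start, and from 65.7% to 26.6% at chr14:79499296-79499631. The CD4+ DMR (chr14:79486664-79487263, 5.77 kb after the start) went from 61.9% to 17.6%, a loss of 44.4 points.

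None of the 3 *Elf1* DMRs was a DMR in the other cell type, yet the other cell type lost more than 20 points at each. At the CD11b+ DMRs, CD11b+ cells lost 43.6 and 39.1 points, and CD4+ cells lost less, 23.8 and 28.8. Where CD4+ cells had their DMR, with a loss of 44.4 points, CD11b+ cells lost 43.3. That last site held the largest loss of any member region, chr14:79486664-79486892 in CD11b+ cells, from 68.4% to 9.18%. It was no DMR because it held exactly 10 cytosines. Part of the CD4+ DMR is shown (chr14:79486964-79487263, plus strand).
Elf1: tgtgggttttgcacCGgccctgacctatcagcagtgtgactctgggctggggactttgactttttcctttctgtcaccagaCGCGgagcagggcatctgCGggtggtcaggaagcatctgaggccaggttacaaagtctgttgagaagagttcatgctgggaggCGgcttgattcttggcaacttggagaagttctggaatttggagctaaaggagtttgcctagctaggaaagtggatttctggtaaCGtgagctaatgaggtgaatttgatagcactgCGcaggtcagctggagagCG

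**Figure D4:**
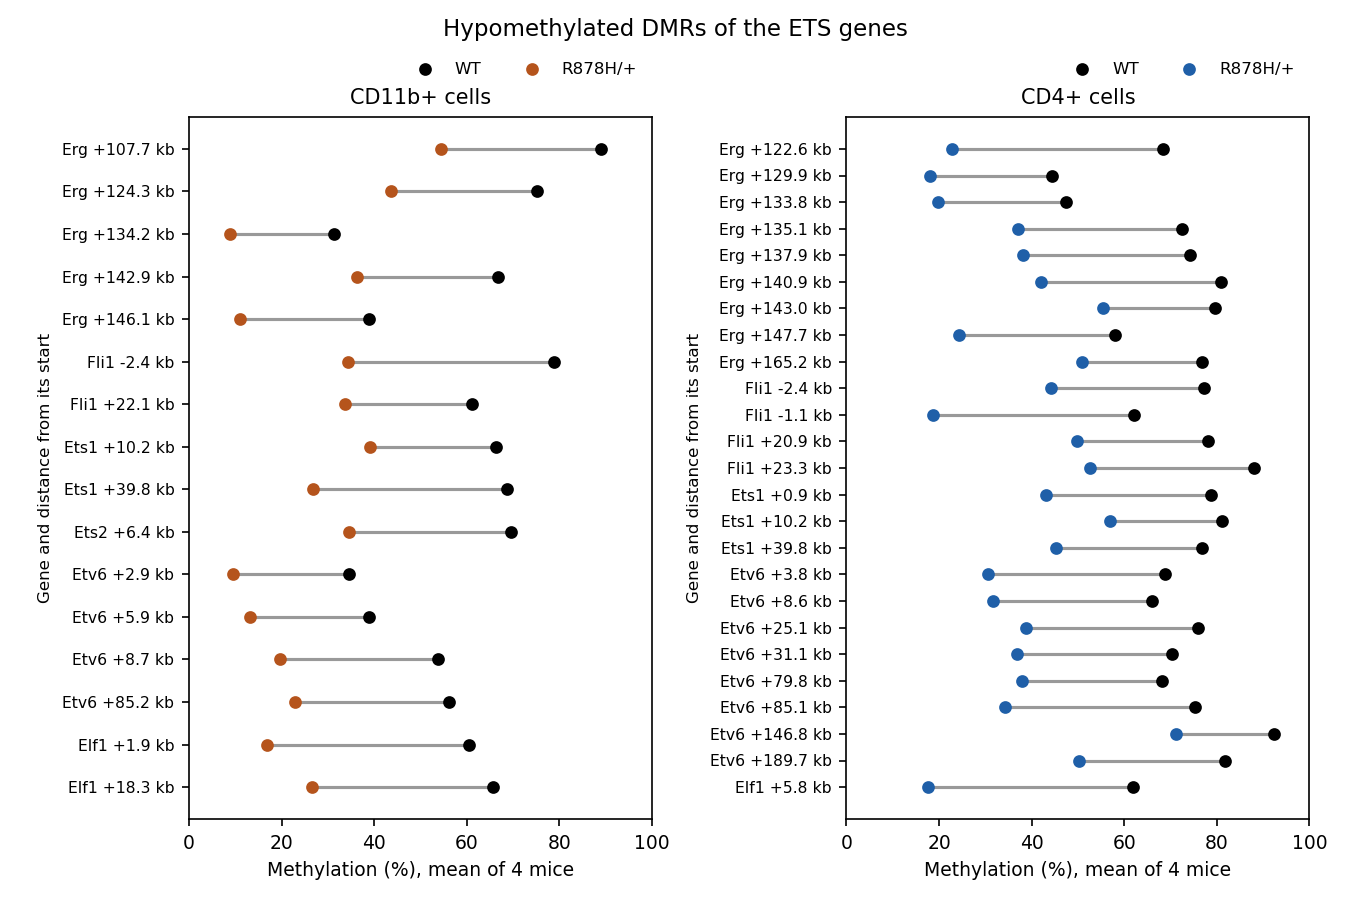
Mean methylation (%) of WT (black) and R878H/+ mice (coloured) at each of the 16 CD11b+ DMRs (left) and 25 CD4+ DMRs (right), named by gene and distance of the midpoint from the gene start. All lines run from a higher WT to a lower R878H/+ value, which the DMR criteria fix in size; the median WT level was 63.4% at the CD11b+ and 75.2% at the CD4+ DMRs.

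By position, introns held 15 of the 16 CD11b+ DMRs and 21 of the 25 CD4+ DMRs. They also held 363 of the 429 member regions in CD11b+ and 437 of the 522 in CD4+ cells, so most DMRs lay where most regions lay. The flanks held 1 in each cell type, the *Fli1* upstream DMR. Promoters were taken as 1 kb to either side of any start of the gene. They held 0 of 21 regions called in CD11b+ and 2 of 25 in CD4+ cells, those of *Fli1* and *Ets1* given above. Of all member regions 3.73% and 4.79% were called, and with so few promoter regions a difference from those shares could not be told. Promoter regions differed widely in WT level, with medians of 29.2% in CD11b+ and 61.7% in CD4+ cells, and several sat at internal or non-coding starts.

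Over the second group of *Elf1* starts, WT was 1.72% and R878H/+ 10.0% in CD11b+ cells, whereas CD4+ cells were at 4.75% and 1.00%. That CD11b+ region held exactly 10 cytosines and missed the q threshold. A further CD11b+ region 0.616 kb after those starts was lower in R878H/+, at 5.44% and 0.521%. CD4+ cells were at 3.62% and 1.46% in a region 0.949 kb after them, so the opposite sign rests on 1 region. Next to the *Etv6* gene start CD11b+ cells were at 4.70% and 1.27% and CD4+ cells, at another region, at 0.150% and 0.925%. At the *Ets1* gene start CD4+ cells were at 11.5% in WT and 2.0% in R878H/+. CD11b+ cells were at 31.6% and 17.0% on the other side of its coding starts. Just before the coding starts of *Ets1*, the region chr9:32693992-32695144 went from 69.3% to 44.3% in CD11b+ cells and missed the q threshold. The non-coding *Etv6* transcript that starts at chr6:134247565 had 3 regions in CD11b+ cells that lost 21.7, 13.0 and 17.8 points and 4 in CD4+ cells that lost 22.3, 40.2, 18.2 and 13.8. The loss of 40.2 points, from 61.7% to 21.4%, was over exactly 10 cytosines.

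The rest of the promoter regions were mostly at the ends of the methylation scale. At the *Erg* start near chr16:95524603, CD11b+ cells were at 92.3% and 86.5% and CD4+ cells at 92.9% and 87.8% in WT and R878H/+. The annotated *Erg* gene start was listed in CD4+ cells alone, at 12.3% and 5.97%. *Ets2* had 5 such regions in CD4+ cells, with WT levels from 10.8% to 98.0% and differences from 11.4 points lower to 1.30 higher in R878H/+, and 1 in CD11b+ cells at 92.3% and 87.5%. At the non-coding *Etv6* start at chr6:134233600, CD11b+ cells went from 93.6% to 88.4% and from 76.5% to 53.5%, while CD4+ cells, from 89.4% to 96.5% in WT, lost at most 9.08 points and gained at most 1.75.

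Between the cell types, 9 of the 16 CD11b+ DMRs (56.2%) overlapped a CD4+ DMR, and 11 of the 25 CD4+ DMRs (44.0%) overlapped a CD11b+ DMR. Over all hypomethylated DMRs the shares were 54.4% of 2370 in CD11b+ and 35.3% of 3683 in CD4+ cells. The 7 CD11b+ DMRs without a partner were all lower in R878H/+ CD4+ cells too, by 18.9 to 32.4 points. Of the 14 CD4+ DMRs without a partner, 12 had listed CD11b+ regions over at least 50% of their length, which lost 9.72 to 43.3 points, with 6 of the 12 over 20. A DMR in 1 cell type thus did not mean that the other had kept its methylation, and the difference between the cell types was not tested.

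Where regions of both tables overlapped by at least 50% of each, 197 pairs in 5 genes could be set side by side, with none in *Ets2*. CD11b+ cells lost more in 104 of the 197, with medians of 15.2 and 13.6 points in CD11b+ and CD4+ cells. Losses ran together across pairs (Pearson's r = 0.755, Spearman's rho = 0.766), which is a description, since pairs are neighbouring regions of few genes and share libraries. It was highest in *Ets1* (r = 0.932 over 13 pairs) and lowest in *Etv6* (r = 0.631 over 86).

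WT levels in these pairs differed by gene. WT methylation was lower in CD11b+ cells in 72 of 86 *Etv6* pairs, by a median of 8.04 points, and in 37 of 50 *Erg* pairs, by 3.29. In *Elf1* it was lower in 10 of 24 pairs and in *Fli1* in 13 of 24. Over all 197 pairs it was lower in CD11b+ cells in 140. WT CD4+ cells were likewise the more methylated at 13 of the 16 CD11b+ DMRs. They were so at 21 of the 23 CD4+ DMRs that had listed CD11b+ regions over at least 50% of their length. CD4+ DMRs were picked by a large loss in CD4+ cells, which favours a high WT level there. The DMRs of the 2 cell types also overlap in part, so these counts are not independent.

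**Figure D5:**
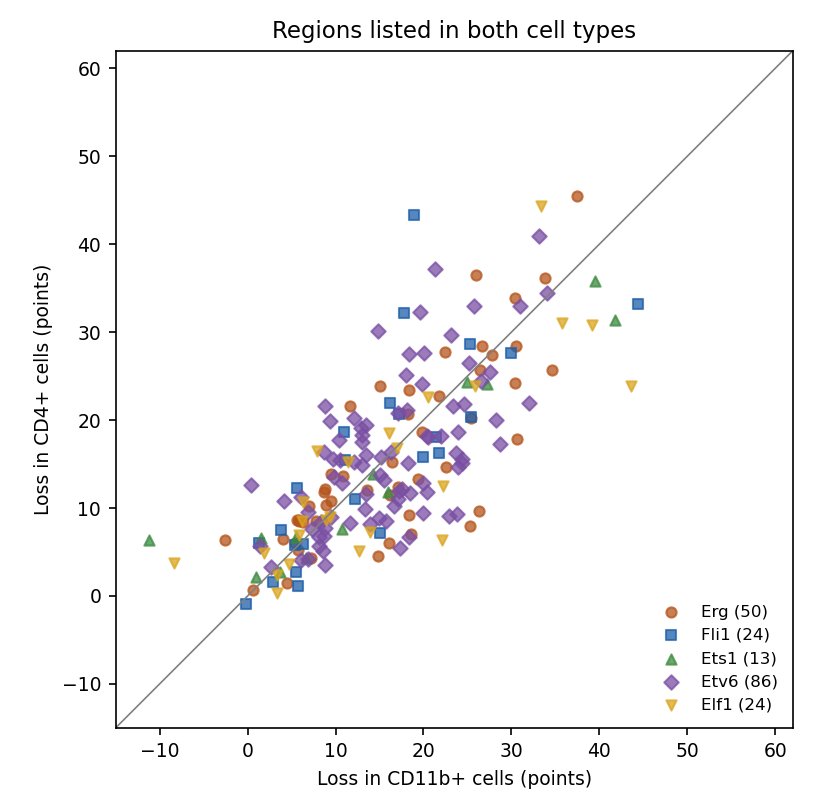
Loss in CD4+ cells against loss in CD11b+ cells (percentage points) for the 197 pairs of regions that overlap by at least 50% of each, with the number of pairs per gene. The diagonal marks equal loss; 41 pairs lost over 20 points in both cell types, of 61 in CD11b+ and 58 in CD4+ cells.

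The other 20 ETS genes of the mouse were counted in the same way. In CD11b+ cells 2 of the 20 had a hypomethylated DMR, beside 8.07% of protein-coding genes with a listed region. They held 3 DMRs among 293 regions (1.02%), beside 0.576% of all listed regions. In CD4+ cells 4 of the 20 had one, beside 10.9% of such genes, with 10 DMRs among 376 regions (2.66%), beside 0.665%. The median loss over the regions of the 20 genes was 8.30 points in CD11b+ and 8.12 in CD4+ cells. They had fewer listed regions per gene, with medians of 11.0 and 12.0. *Elk3* had most, 2 and 5 DMRs, with losses of up to 48.8 and 53.4 points. *Spi1*, the master factor of myeloid cells (PU.1), had 0 in CD11b+ and 3 in CD4+ cells, the largest from 88.4% to 51.5%. Its methylation was nonetheless lower in R878H/+ in all 18 of its CD11b+ regions, with a median loss of 15.7 points, against 12.6 in CD4+ cells. Losses over 20 points numbered 5 of 18 in CD11b+ and 9 of 30 in CD4+ cells. *Elf3* had 1 in each, from 87.7% to 34.4% in CD11b+ and from 91.2% to 49.9% in CD4+ cells.

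Binding motifs were counted on both strands in the 300 bases around the midpoint of each DMR. The ETS motif AGGAAG was in 6 of the 16 CD11b+ windows (37.5%) and 10 of the 25 CD4+ windows (40.0%), beside 35.1% and 34.0% of the windows of all listed regions and 44.1% and 42.1% of those of all hypomethylated DMRs, the last 2 being above the member shares. CCGGAA, the ETS motif with a CpG, was in 0 of either, beside 4.64% and 4.26% of all regions and 10.7% and 9.01% of all hypomethylated DMRs; it shares the GGAA core with AGGAAG without being able to lie over the same core. The GATA motif AGATAA was in 3 and 1 windows, beside 17.3% and 16.4% of all hypomethylated DMRs, and the RUNX motif TGTGGT in 2 and 6, beside 19.5% and 20.1%. With so few windows these counts describe the DMRs and no more.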

How the data were processed

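The authors prepared WGBS libraries from splenic CD11b+ and CD4+ cells, aligned them to mm10 (BISCUIT) and found regions by metilene. FastQC is named in the submitters' processing notes. The limits for a DMR on difference and q are those of the study's methods, applied here to the deposited regions. The study's limit of more than 10 CpGs was applied to the listed number, which counts cytosines of both strands separately. Some DMRs thus held 10 or fewer CpG dinucleotides. Among them were both CD11b+ DMRs of *Elf1*, with 8 and 10, and the CD4+ DMR with the largest *Erg* loss, with 6. Tool versions and the run options of metilene are not given in the sources used here. The deposited tables, 1 per cell type, hold 0 columns of single mice. Per region they give mean methylation in percent for each group as computed by the authors, the number of CpG cytosines, a deposited q-value (used only as a threshold), and a difference and 2 further p-values, which are the authors' comparisons and were not used. Means of 10% or more over 10 cytosines were multiples of 1/40 point, as 4 mice with whole percentages give.

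Coordinates were read as starting from 0 and are printed from 1. Genes came from GENCODE M21, and sequences from GRCm38. Counts, medians and overlaps were computed with pandas 2.3.3 and numpy 2.4.6, and the code was tested on simulated data. No test was run. Alternatives were other limits on q, difference and cytosines, other windows and other overlaps. The genes, lists and rules were chosen with earlier results of these data known; *Erg* and *Etv6* in CD4+ cells and *Erg* in CD11b+ cells, with over 4 DMRs, are given by their 3 largest losses. The markers and the other ETS genes are textbook lists.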

Additional observations from a re-analysis of the deposited data

How the results depend on the processing

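The tables hold group means alone, so no mouse could be left out. No paired analysis was possible because the tables give no value of a single mouse. Without a q threshold the DMRs went from 16 to 56 in CD11b+ and from 25 to 63 in CD4+ cells, and the CD11b+ DMRs overlapping a CD4+ DMR from 9 to 36. With over 30 points CD11b+ cells had 10, and with over 20 cytosines 9 in CD11b+ and 15 in CD4+ cells. The median loss went from 10.7 points in CD11b+ cells to 11.7 weighted by cytosines, 11.4 with over 10 cytosines, 11.0 in gene bodies and 10.6 with 10 kb flanks, and from 9.46 in CD4+ cells to 10.9, 10.2, 9.57 and 9.43. Other counts over the 6 genes stayed within 1.5 times, and no direction turned. Of 108 counts for single genes 22 moved further, 9 of them without a q threshold; with over 20 cytosines *Elf1* had 0 DMRs in both cell types. Admitting regions of 10 cytosines, an alternative chosen after seeing the data, gave 17 and 26 DMRs, with 11 of the 17 overlapping. Shares of all listed regions called moved with the same limits, to 3.24% and 3.08% without q, beside 13.1% and 12.1% of member regions. Depth, coverage and the spread between mice are unknown, which limits each value.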

Other observations

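The stretches between neighbouring members held listed regions but no DMR. Of all listed regions 0.576% in CD11b+ and 0.665% in CD4+ cells were hypomethylated DMRs. At those shares, stretches with so few regions would mostly hold none. Between the windows of *Fli1* and *Ets1* (83.4 kb, chr9:32547862-32631220), 29 of 33 regions in CD11b+ cells and 39 of 41 in CD4+ cells were lower in R878H/+, with median losses of 8.96 and 12.8 points. Losses over 20 points numbered 6 and 10 there, and none was a DMR. Between the windows of *Erg* and *Ets2* (105 kb, chr16:95591594-95697074), 47 of 48 regions in CD11b+ and 63 of 69 in CD4+ cells were lower, with median losses of 8.95 and 6.46 points, and 7 and 5 lost over 20 points.

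Methylation was higher in R878H/+ in 19 member regions of each cell type, by over 10 points in 2 of CD11b+ and 1 of CD4+ cells. None of these had a q-value below 0.05. In *Fli1*, the intronic region chr9:32499639-32500300 was at 7.60% in WT and 7.83% in R878H/+ CD11b+ cells, and CD4+ cells were at 7.33% and 8.22% over nearly the same bases, so a site unmethylated in both cell types stayed near its WT level in both.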
